A study of Mus musculus with 24 samples.

Results

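CC chemokines are small secreted proteins that steer leukocytes along a concentration gradient, and they are named for a pair of adjacent cysteines near the start of the mature protein. The 9 followed here through every library of a mouse lung study are Ccl2, Ccl3, Ccl4, Ccl6, Ccl7, Ccl9, Ccl17, Ccl20 and Ccl22. They were taken by gene name from the deposited table, which lists 78298 genes. All 9 of the 9 were found and all 9 passed the filter on low values, which kept 17823 genes with a TPM (a share of all transcripts, corrected for gene length) of at least 1 in at least 4 of the 24 libraries.

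The mice were wild-type C57BL/6 animals, 7 weeks old, fed the purified diet AIN-76A. The AEAA groups drank an aqueous extract of Artemisia argyi, a mugwort, abbreviated AEAA, for 28 days at 0.5 mg/mL (AEAA_low), 1 mg/mL (AEAA_mid) or 1.5 mg/mL (AEAA_high), with 5 libraries each. On day 29 these mice, and 5 without extract (LPS), were given 5 mg/kg of lipopolysaccharide into the trachea. Lipopolysaccharide is a component of the outer membrane of Gram-negative bacteria that acts through Toll-like receptor 4. The 4 Control libraries came from mice given saline according to the study's description, although their sample characteristics also carry the challenge. Lungs were taken 8 h after the challenge and total RNA was sequenced after depletion of ribosomal RNA. No group had the extract without the challenge, so an effect of the extract alone cannot be told apart from its effect on the response. The labels do not tie libraries to numbered animals, so p-values measure the spread between these libraries.

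Chemokines act on receptors of leukocytes in overlapping sets. Ccl2 and Ccl7 draw monocytes through Ccr2. Ccl3 and Ccl4, the macrophage inflammatory proteins 1 alpha and 1 beta, draw monocytes, macrophages and T cells, and Ccl3 acts in part through Ccr1. Ccl6 and Ccl9 are rodent ligands of Ccr1. Ccl20 is the ligand of Ccr6, carried by some dendritic cells and lymphocytes, and Ccl17 and Ccl22 are ligands of Ccr4 on T cells. In lung, macrophages, epithelium and recruited leukocytes are all known sources, and lipopolysaccharide induces many of these genes through the transcription factor NF-kB.

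The genes lie in clusters that are known from the mouse annotation. Ccl2 and Ccl7 are next to each other on chromosome 11, as are Ccl9 and Ccl6, and Ccl3 and Ccl4. Ccl22 and Ccl17 lie on chromosome 8 with Cx3cl1 between them, and Ccl20 stands apart from the other members on chromosome 1. Both Ccl2 and Ccl6 are overlapped by a gene on the opposite strand, named Gm17268 and E230016K23Rik in that order. E230016K23Rik did not pass 2 TPM in any library. Gm17268 is not listed under that name in the table used here. Whether the counting used strand is not given in the sources used here, so reads of such overlapping pairs cannot be told apart.

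RefSeq promoter sequence (build GRCm38.p6) was at hand for 6 of the 9 members, and 4 are shown because they contrast members with wide and narrow ranges of expression. Each is the 250 bases before the annotated start, printed 5′ to 3′ on the strand of the gene, and capitals mark a match to the 10-base NF-kB consensus. The windows are chr1:83116516-83116765 on the plus strand for Ccl20, and on the minus strand chr11:83578637-83578886 for Ccl9, chr11:83649379-83649628 for Ccl3 and chr11:83593088-83593337 for Ccl6.
Ccl20: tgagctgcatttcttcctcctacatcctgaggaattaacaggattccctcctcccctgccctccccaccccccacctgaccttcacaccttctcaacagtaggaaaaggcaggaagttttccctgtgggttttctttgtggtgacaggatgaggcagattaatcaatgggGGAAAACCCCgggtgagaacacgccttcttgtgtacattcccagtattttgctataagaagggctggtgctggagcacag
Ccl9: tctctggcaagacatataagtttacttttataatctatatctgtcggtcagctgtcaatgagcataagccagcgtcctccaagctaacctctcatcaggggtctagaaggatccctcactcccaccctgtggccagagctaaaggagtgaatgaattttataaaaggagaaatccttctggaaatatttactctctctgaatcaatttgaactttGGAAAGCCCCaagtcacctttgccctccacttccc
Ccl3: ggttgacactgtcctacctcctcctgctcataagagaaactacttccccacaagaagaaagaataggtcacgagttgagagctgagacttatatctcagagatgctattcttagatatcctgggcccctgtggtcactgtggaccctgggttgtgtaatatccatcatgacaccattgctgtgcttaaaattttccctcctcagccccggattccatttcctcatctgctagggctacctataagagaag
Ccl6: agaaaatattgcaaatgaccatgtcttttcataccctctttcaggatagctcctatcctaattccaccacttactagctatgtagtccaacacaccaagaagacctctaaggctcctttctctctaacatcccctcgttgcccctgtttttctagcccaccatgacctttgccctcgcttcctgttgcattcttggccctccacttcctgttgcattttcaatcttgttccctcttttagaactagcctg
The Ccl20 window held 1 match, GGAAAACCCC, from 80 to 71 bases before the start, which fits the consensus on the opposite strand. Ccl9 held GGAAAGCCCC from 35 to 26 bases before the start, also on the opposite strand. The windows of Ccl3, Ccl6, Ccl17 and Ccl22 held no match. Of 32536 promoters of this length in the same table, 3.92% held at least 1 match on either strand. The AP-1 motif TGANTCA was found in Ccl9 alone of these 6, as TGAATCA from 53 to 47 bases before the start, against 6.73% of all promoters. TATAAA was also found in Ccl9 alone, from 92 to 87 bases before the start and on the opposite strand from 94 to 89, overlapping it, and from 224 to 219; 12.3% of all promoters hold it in either direction. The C/EBP motif TTGCNNAA, present in 9.57% of promoters, was in none of the 6. A match is only a run of letters, and no binding was measured.

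The libraries differed in ways that bear on every value below. TPM sum to a fixed total, and the club cell gene Scgb1a1 alone took 232069 to 354500 TPM in the Control libraries and was lower in LPS by a log2 fold change of -2.56 (SE 0.28; limma adjusted p = 2.55e-07). The median gene was 0.55 higher in LPS than in Control on the log2 scale, and 0.02 higher after each library was divided by its median-of-ratios factor, so every contrast is given both ways. The read depth of the libraries is unknown. Acta1, a skeletal muscle actin, reached 1990 TPM in LPS library 1, 1296 TPM in LPS library 3 and 470 TPM in AEAA_low library 5, and was at most 5.54 TPM in the other libraries. The labels call the mice male, yet Xist stood at 25.8 to 95.5 TPM in all 24 libraries and the Y-linked Ddx3y at 0 to 0.02 TPM.

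The monocyte attractants were near the floor in Control lungs and high in most, not all, challenged lungs. Ccl2 stood at 1.03, 1.94, 0.92 and 1.29 TPM in the Control libraries. In the LPS libraries it stood at 110, 4.88, 112, 3.23 and 81.8 TPM. The 5 LPS libraries lay above all 4 Control libraries, but libraries 2 and 4 only by a small margin. With the extract, Ccl2 was 4.49, 103, 136, 113 and 214 TPM in AEAA_low, 3.60, 112, 109, 4.33 and 162 TPM in AEAA_mid, and 1.36, 184, 193, 1.69 and 255 TPM in AEAA_high. Each group thus held at least 1 library near the Control values, and in AEAA_high 2 libraries fell within the Control range. Ccl7, the neighbour of Ccl2, ran from 0.39 to 1.73 TPM in Control and from 1.38 to 123 TPM after the challenge. The ratio of Ccl2 to Ccl7 was 0.981 to 2.36 in Control and 0.716 to 2.41 in the challenged libraries. Among challenged libraries the lowest ratios, 0.716, 0.782 and 0.927, were in AEAA_high library 1, LPS library 4 and AEAA_mid library 4, where both genes were low.

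**Figure D1:**
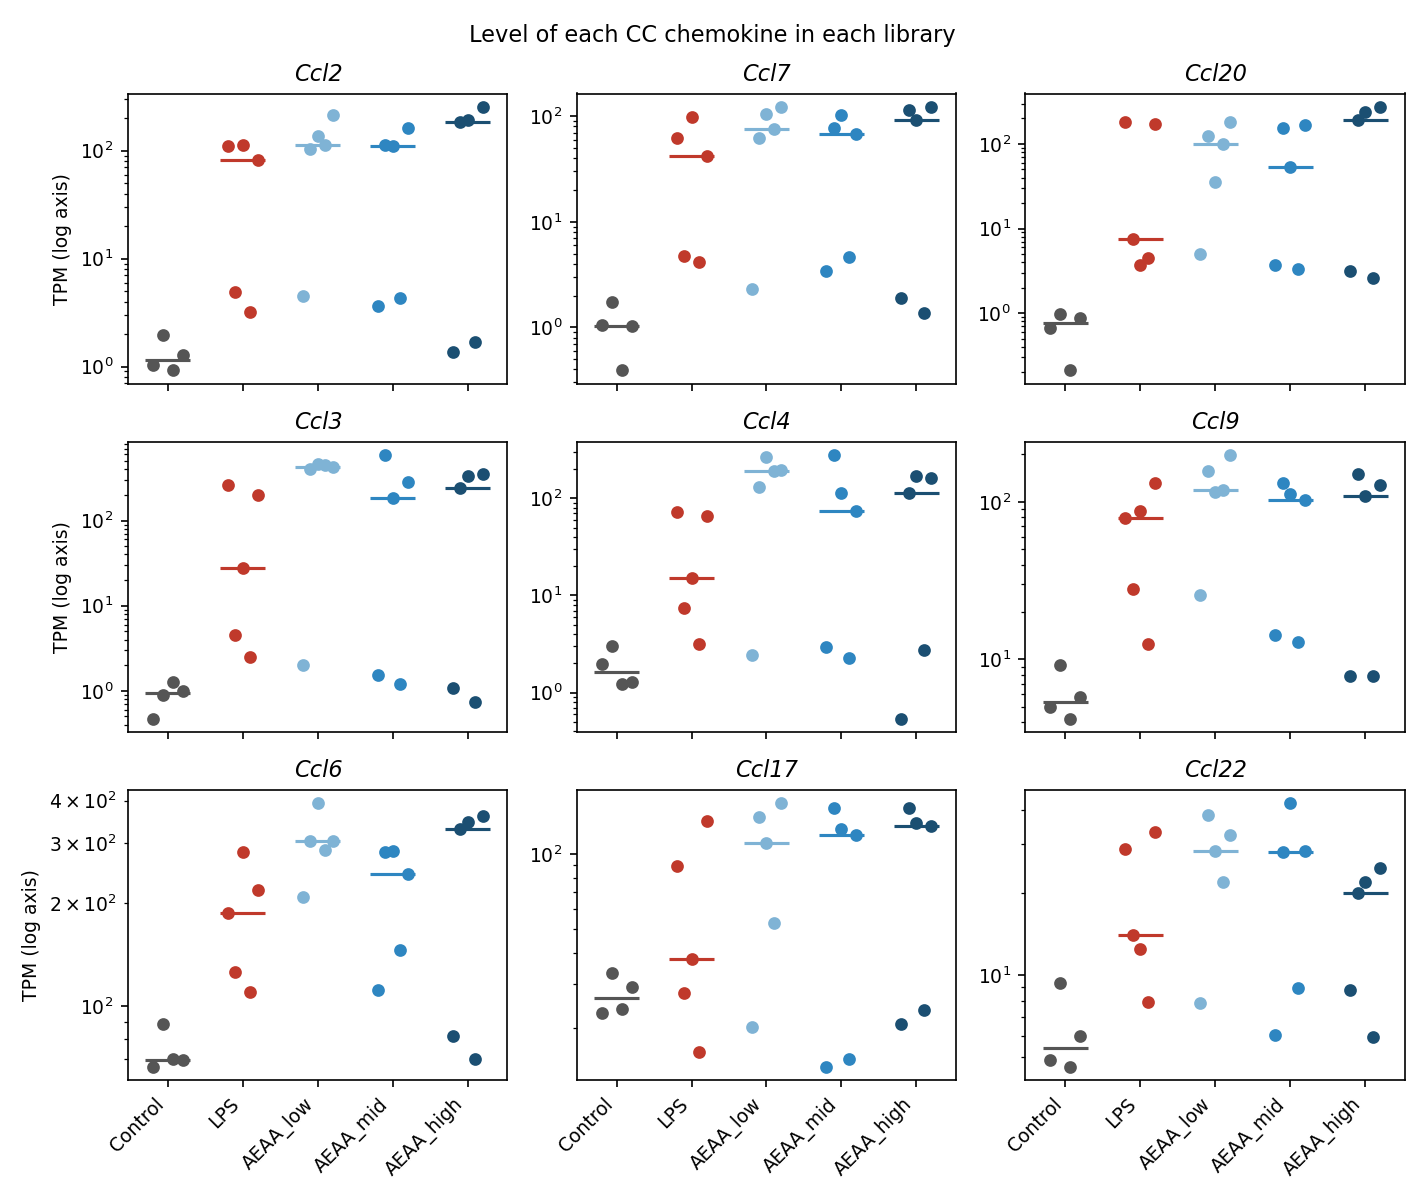
Level of each of the 9 CC chemokines in each of the 24 libraries, in TPM on a log axis, by group (Control n = 4, other groups n = 5); points are libraries in label order and bars are group medians. For Ccl2, the challenged libraries lie either at 4.88 TPM or less or at 81.8 TPM or more, while Ccl6 spans a narrower range.

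For Ccl2, Ccl7 and Ccl9 the widest step between neighbouring values among the 20 challenged libraries fell at the same place, with 7 libraries below and 13 above. The 7 were LPS libraries 2 and 4, AEAA_low library 1, AEAA_mid libraries 1 and 4 and AEAA_high libraries 1 and 4, for each of these 3 genes. The step went from 4.88 to 81.8 TPM for Ccl2, from 4.75 to 41.9 TPM for Ccl7 and from 28.1 to 78.4 TPM for Ccl9. For Ccl3, Ccl4, Ccl20 and Ccl22 LPS library 3 joined them below the widest step. That step went from 28.0 to 183 TPM for Ccl3, from 15.2 to 66.4 TPM for Ccl4 and from 7.60 to 35.9 TPM for Ccl20. For Ccl22 it was only 1.42 times, from 14.0 to 19.9 TPM. For Ccl3, LPS library 3 lay between the 2 kinds, since the other libraries below the step were at 4.50 TPM or less. The split did not extend to all 9 members in this form: Ccl17 had 9 libraries below its widest step, AEAA_low library 4 among them, and Ccl6 had 2, AEAA_high libraries 1 and 4. Challenged libraries of both kinds therefore made up each group, in different numbers: 2 of 5 lay below the step of Ccl2 in LPS, 1 of 5 in AEAA_low, 2 of 5 in AEAA_mid and 2 of 5 in AEAA_high. The labels name no batch or treatment difference for these libraries. The summed TPM of 10 neutrophil markers moved with this split: it was 2282 in LPS library 2, 838 in LPS library 4, 1701 in AEAA_low library 1, 998 and 523 in AEAA_mid libraries 1 and 4, and 713 and 430.0 in AEAA_high libraries 1 and 4. It was 7870 or more in the other 13 challenged libraries and 229.5 to 327 in Control. Lcn2 was a large part of the sum, with 10577 of 12440 TPM in LPS library 1 and 6217 of 7977 TPM in AEAA_mid library 3. The split of the sum thus leaned on Lcn2. Not every marker followed the split. S100a9, Csf3r, Cxcr2, Retnlg, Mmp8 and Ly6g were higher in LPS library 2 than in LPS library 1. S100a9 stood at 1127 and 1034 TPM in that order. Lcn2, S100a8, Il1r2 and Trem1 were lower in LPS library 2, with Lcn2 at 251 TPM. S100a8 did not follow the split either. It stood at 595 TPM in LPS library 2, below the step, and at 526 TPM in AEAA_mid library 3, above it. The part of neutrophil content in the chemokine levels was not tested.

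Ccl3 and Ccl4 covered the widest range of all. Ccl3 was 0.47, 0.88, 1.26 and 0.99 TPM in Control, and 265, 4.50, 28.0, 2.47 and 202 TPM in LPS. In AEAA_low it was 2.01 TPM in library 1 and 402, 467, 446 and 431 TPM in the others. AEAA_mid gave 1.52, 592, 183, 1.21 and 285 TPM, and AEAA_high 1.08, 244, 336, 0.74 and 356 TPM. The 4 high AEAA_low libraries lay close together and above every LPS library, whereas each extract group also held a library close to or within the Control range. The highest challenged library exceeded the lowest by 801 times for Ccl3 and by 518 times for Ccl4, against 187 times for Ccl2, 107 times for Ccl20 and 89.3 times for Ccl7. Ccl4 ran from 1.23 to 2.99 TPM in Control and from 0.54 to 280 TPM after the challenge. The ratio of Ccl3 to Ccl4 was 0.240 to 1.02 in Control and 0.269 to 3.89 in the challenged libraries.

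Ccl6 and Ccl9, the Ccr1 ligands, differed from each other in their starting level. Ccl6 was the most abundant member in Control at 66.5, 88.6, 70.3 and 69.4 TPM. It was 188, 126, 283, 110 and 219 TPM in LPS, 209, 305, 393, 287 and 305 TPM in AEAA_low, 112, 282, 284, 147 and 243 TPM in AEAA_mid, and 81.6, 329, 346, 70.0 and 360 TPM in AEAA_high. All LPS, AEAA_low and AEAA_mid libraries lay above the highest Control library, while 2 of AEAA_high did not. Ccl9 started at 4.21 to 9.19 TPM in Control and spanned 7.82 to 198 TPM after the challenge. The ratio of Ccl6 to Ccl9 was 9.64 to 16.7 in Control and 1.54 to 11.3 after the challenge, and it lay below the lowest Control ratio in every challenged library except AEAA_mid library 4 and AEAA_high library 1. The highest challenged library exceeded the lowest by 25.4 times for Ccl9 and by 5.62 times for Ccl6, the narrowest range of the 9.

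Ccl20 was the only member above the highest Control library in all 20 challenged libraries. It stood at 0.66, 0.97, 0.21 and 0.88 TPM in Control and at 181, 7.60, 3.66, 4.45 and 173 TPM in LPS. It stood at 4.95, 124, 35.9, 98.7 and 182 TPM in AEAA_low, at 3.71, 152, 52.8, 3.36 and 169 TPM in AEAA_mid, and at 3.13, 192, 236, 2.57 and 275 TPM in AEAA_high. Even the lowest challenged value, 2.57 TPM, lay above the highest Control value. LPS library 3 was low for Ccl20 and high for Ccl2. Its ratio of Ccl20 to Ccl2 was 0.0327, against 0.263 to 2.30 in the other 19 challenged libraries and 0.228 to 0.682 in Control. The same library had 98.3 TPM of Ccl7, the highest of its group, and the 1296 TPM of Acta1 given above. The part of muscle RNA in these values was not tested.

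The Ccr4 ligands covered a moderate range, 11.4 times from lowest to highest challenged library for Ccl17 and 7.14 times for Ccl22. Ccl17 was 23.1, 33.4, 23.8 and 29.2 TPM in Control and 89.7, 27.8, 37.8, 16.1 and 135 TPM in LPS. AEAA_low gave 20.2, 141, 111, 53.0 and 160 TPM, AEAA_mid gave 14.0, 152, 126, 15.1 and 119 TPM, and AEAA_high gave 20.7, 153, 133, 23.7 and 129 TPM. Ccl17 fell below the lowest Control library in at least 1 library of each challenged group, and 13 of 20 challenged libraries lay above the highest Control library. Ccl22 ran from 4.61 to 9.37 TPM in Control and from 5.95 to 42.5 TPM after the challenge, with 14 of 20 above. The ratio of Ccl17 to Ccl22 was 3.56 to 5.16 in Control and 1.68 to 7.69 after the challenge. Above the highest Control library were 19 of 20 challenged libraries for Ccl7, 18 for each of Ccl2, Ccl6 and Ccl9, 17 for Ccl3 and 15 for Ccl4.

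Against Control, LPS raised 6 of the 9 members in limma on log2(TPM + 1) at an adjusted p under 0.05, and lowered none. Over all 17823 genes tested, 56.2% were called higher in the same contrast. The calls were Ccl20 (log2 fold change 3.82, SE 1.56, adjusted p = 0.0413), Ccl2 (3.75, SE 1.57, adjusted p = 0.0465), Ccl7 (3.59, SE 1.38, adjusted p = 0.031), Ccl9 (2.92, SE 0.94, adjusted p = 0.0114), Ccl22 (1.36, SE 0.55, adjusted p = 0.0379) and Ccl6 (1.24, SE 0.44, adjusted p = 0.0192). Ccl3 had the largest estimate, 4.06, but its interval ran from -0.24 to 8.35 and its adjusted p was 0.0987. Ccl4 at 2.81 (adjusted p = 0.137) and Ccl17 at 0.75 (adjusted p = 0.452) were not called either. The median of the 9 was 2.92 against 0.55 for all genes. The share of members called is close to that of all genes, while their median change was larger. Libraries of the groups did not overlap for 7 of the 9, all higher in LPS and all but Ccl17 and Ccl22, beside 49.7% of all genes.

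The calls depended on the scaling and on single libraries. After median-of-ratios scaling 0 of 9 were called against 14.2% of all genes, with the median of the members at 2.33 and that of all genes at 0.02. The estimate of Ccl9 was then 2.33 with an adjusted p of 0.0801, and that of Ccl6 was 0.59 with an adjusted p of 0.361. The count was 2, Ccl6 and Ccl9, without Control library 1, 3 or 4 or without LPS library 1 or 5, it was 4 without Control library 2, and it was 3 without LPS library 3. It was 0 when the 3 libraries with high Acta1 were left out together. None of these settings turned the direction of a member in this contrast.

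The low dose group differed most clearly from Control, but it also had the fewest libraries below the step of Ccl2. Only its library 1 lay there, against libraries 2 and 4 of LPS and libraries 1 and 4 of both AEAA_mid and AEAA_high. The part of this make-up in the calls was not tested. Of the 9 members 8 rose, against 44.4% of all genes called higher, and 7 remained called after scaling, against 13.4%. Ccl3 had a log2 fold change of 6.43 (SE 2.07, limma adjusted p = 0.0142), Ccl20 one of 5.06 (SE 1.56, adjusted p = 0.0111), Ccl2 one of 4.99 (SE 1.57, adjusted p = 0.0126), Ccl4 one of 4.93 (SE 1.59, adjusted p = 0.0143) and Ccl7 one of 4.54 (SE 1.38, adjusted p = 0.0102). Ccl9 rose by 3.92 (adjusted p = 0.00185), Ccl6 by 1.99 (adjusted p = 0.000865) and Ccl22 by 1.77 (adjusted p = 0.0108, and 0.0746 after scaling). Ccl17, at 1.48 with an adjusted p of 0.149, was the one member not called. The count was 8 with each of the 9 libraries of this contrast left out in turn. The groups did not overlap for 6 members beside 41.6% of all genes, since AEAA_low library 1 lay within the Control range for Ccl4 and Ccl22 and below it for Ccl17.

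In AEAA_mid against Control the same 6 genes were called as in LPS against Control, with 53.3% of all genes called higher, and 0 of 9 after scaling, against 14.7%. Their log2 fold changes were 4.23 for Ccl20, 3.94 for Ccl2, 3.75 for Ccl7, 2.90 for Ccl9, 1.46 for Ccl22 and 1.44 for Ccl6, with adjusted p between 0.00813 and 0.0389 in limma. Ccl3 at 4.56 (adjusted p = 0.0669) and Ccl4 at 3.49 (adjusted p = 0.0681) missed the threshold. The count was 2 without Control library 1 or 3 or without AEAA_mid library 2 or 5, 3 without AEAA_mid library 3, and 8 without AEAA_mid library 1 or 4. It was also below 6 without Control library 2 or 4, since Ccl2 lost its call in 7 of these 9 fits. Groups did not overlap for 5 members beside 50.1% of all genes.

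In AEAA_high against Control 5 members rose, beside 37.5% of all genes: Ccl20 by 4.77 (limma adjusted p = 0.0193), Ccl2 by 3.98 (adjusted p = 0.0498), Ccl7 by 3.63 (adjusted p = 0.0424), Ccl9 by 2.70 (adjusted p = 0.0278) and Ccl6 by 1.35 (adjusted p = 0.0181). After scaling Ccl20 alone was called, at 4.68 (adjusted p = 0.0455), beside 10.2% of all genes. Ccl20 was also the only member whose AEAA_high libraries did not overlap with Control, beside 29.5% of all genes. The count was 0 without AEAA_high library 2, 3 or 5, 2 without Control library 1, 3 or 4, 3 without Control library 2, and 7 without AEAA_high library 1 or 4. The 4 contrasts share their Control libraries.

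**Figure D2:**
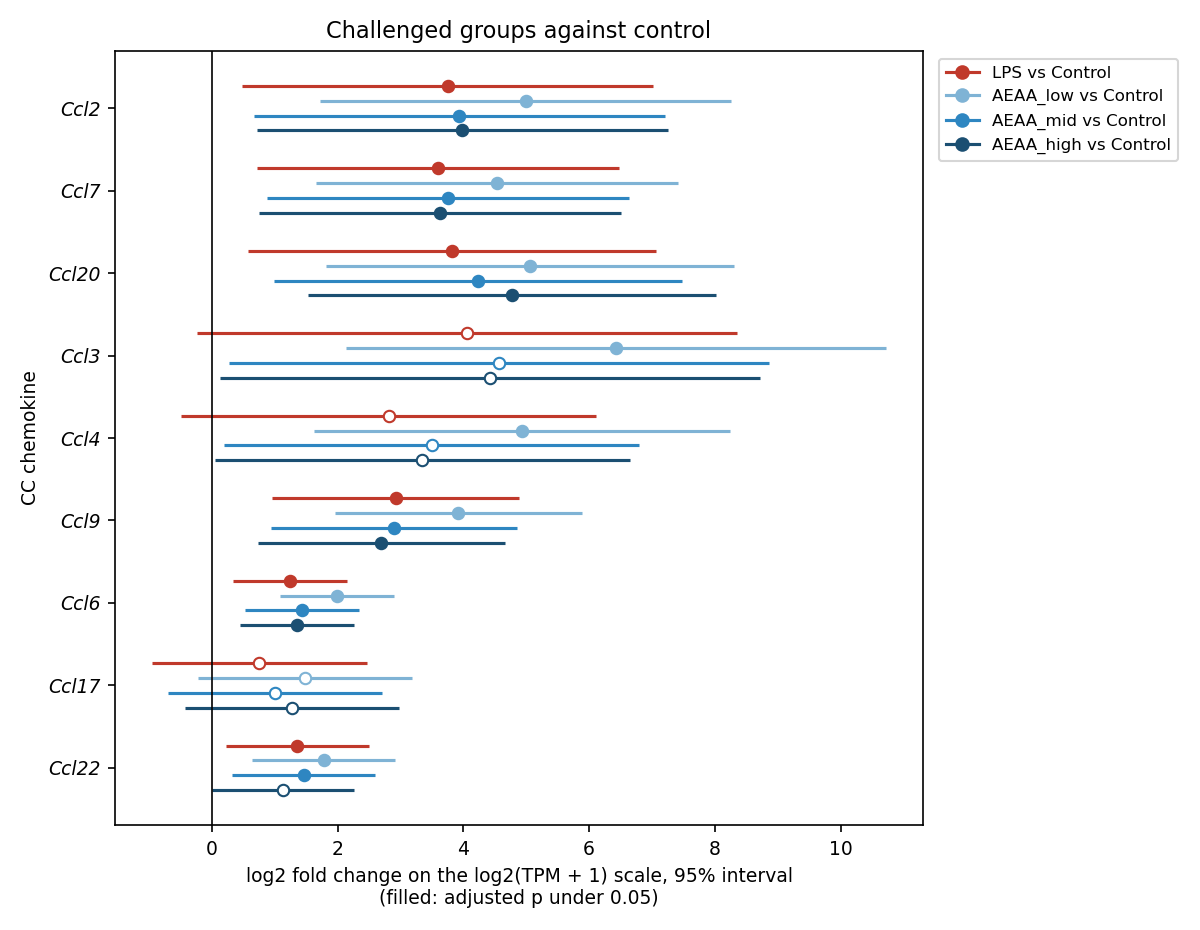
Log2 fold change of each CC chemokine in LPS, AEAA_low, AEAA_mid and AEAA_high against Control on the log2(TPM + 1) scale, with 95% intervals from limma; filled points have an adjusted p under 0.05 on TPM as deposited. The filled points number 6, 8, 6 and 5 of 9 in that order, and 0, 7, 0 and 1 after median-of-ratios scaling.

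Against LPS alone, 0 of the 9 members passed the test in any extract group. On TPM as deposited the unadjusted p was also above 0.05 for each member in each group. After scaling 0 of 9 were called, and 1 unadjusted p was below 0.05, that of Ccl6 in AEAA_low (0.98 higher, unadjusted p = 0.0422, limma adjusted p = 0.297). Over all genes, 10.6% were called in AEAA_low, 0% in AEAA_mid and 27.6% in AEAA_high, most of them lower (9.38% and 25.5% of all genes in AEAA_low and AEAA_high). After scaling the shares called were 2.11%, 0% and 8.73%. In AEAA_mid against LPS 625 of the genes had an unadjusted p under 0.05, and 532 after scaling. AEAA_low held fewer libraries below the step of Ccl2 than LPS did. In AEAA_low the estimates of all 9 members were above 0, with a median of 1.00 while the median of all genes was -0.20. They were 2.37 for Ccl3 with an interval from -1.68 to 6.42, 2.12 for Ccl4 (-0.99 to 5.24), 1.24 for Ccl2 (-1.84 to 4.33), 1.24 for Ccl20 (-1.82 to 4.30) and 1.00 for Ccl9 (-0.85 to 2.85). The smallest p was that of Ccl6, at 0.75 (interval -0.11 to 1.61, unadjusted p = 0.0826, limma adjusted p = 0.229). Its adjusted p was 0.0879 with only the compared groups in the fit and 0.118 with the replicate block.

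AEAA_mid estimates lay closer to 0, from -0.02 for Ccl9 to 0.69 for Ccl4, with a median of 0.20. For Ccl3 the interval was -3.54 to 4.56 and for Ccl2 -2.90 to 3.27. AEAA_high estimates ran from -0.23 for Ccl22 and Ccl9 to 0.95 for Ccl20, with a median of 0.23 beside -0.27 for all genes. The interval of Ccl20 was -2.11 to 4.01, that of Ccl2 -2.85 to 3.32 and that of Ccl3 -3.68 to 4.42. After scaling Ccl9 turned to 0.03 in AEAA_mid and, in AEAA_high, Ccl9 turned to 0.09 and Ccl22 to 0.07. Intervals of this width cover both severalfold lower and severalfold higher levels with extract. These data thus do not show that the members respond alike with and without it. Ccl6, with the narrowest intervals, was held to -0.66 to 1.05 in AEAA_mid and -0.75 to 0.97 in AEAA_high.

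The linear trend over 0, 0.5, 1 and 1.5 mg/mL called 0 of 9 members, beside 8.4% of all genes, and 0 of 9 beside 1.53% after scaling. Slopes per 1 mg/mL on the log2 scale ran from -0.34 for Ccl9 (interval -1.51 to 0.83) to 0.41 for Ccl20 (interval -1.53 to 2.34). The 7 others lay between -0.20 for Ccl22 and 0.22 for Ccl17. Slopes of Ccl2, Ccl6 and Ccl7 were below 0 on TPM as deposited and turned to 0.08, 0.11 and 0.01 after scaling.

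**Figure D3:**
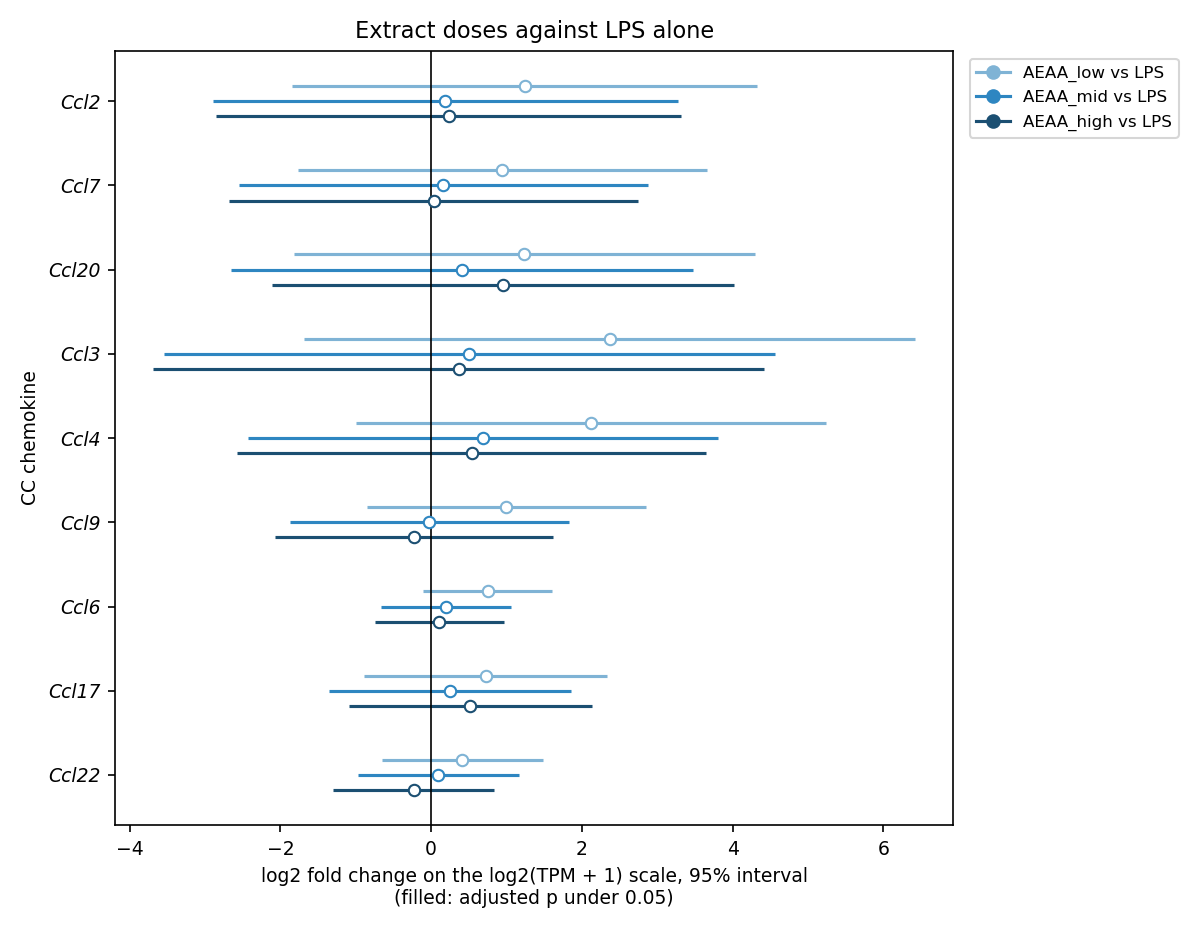
Log2 fold change of each CC chemokine in AEAA_low, AEAA_mid and AEAA_high against LPS alone on the log2(TPM + 1) scale, with 95% intervals from limma; open points have an adjusted p of 0.05 or more. All 27 intervals include 0, and the estimates of AEAA_low lie above 0 for all 9 genes.

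The make-up of the set shifted with its total. TPM are per length, so levels can be set side by side. In Control the 9 genes summed to 105 to 149 TPM, of which Ccl6 was 59.5 to 65.7% and Ccl17 22.1 to 25.2%, and Ccl3 only 0.449 to 1.18%. The sum ran from 164 to 1083 TPM in LPS, from 279 to 1841 TPM in AEAA_low, from 161 to 1808 TPM in AEAA_mid and from 117 to 1809 TPM in AEAA_high. In AEAA_mid library 2 Ccl3 was the largest part at 32.8%, and Ccl6 was down to 15.6%. In AEAA_low library 1, with a sum of 279 TPM, Ccl6 made up 74.9% and Ccl3 0.721%. LPS library 3 differed from both, with Ccl6 at 41.7%, Ccl2 at 16.6% and Ccl7 at 14.5%, and Ccl20 at 0.540%.

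**Figure D4:**
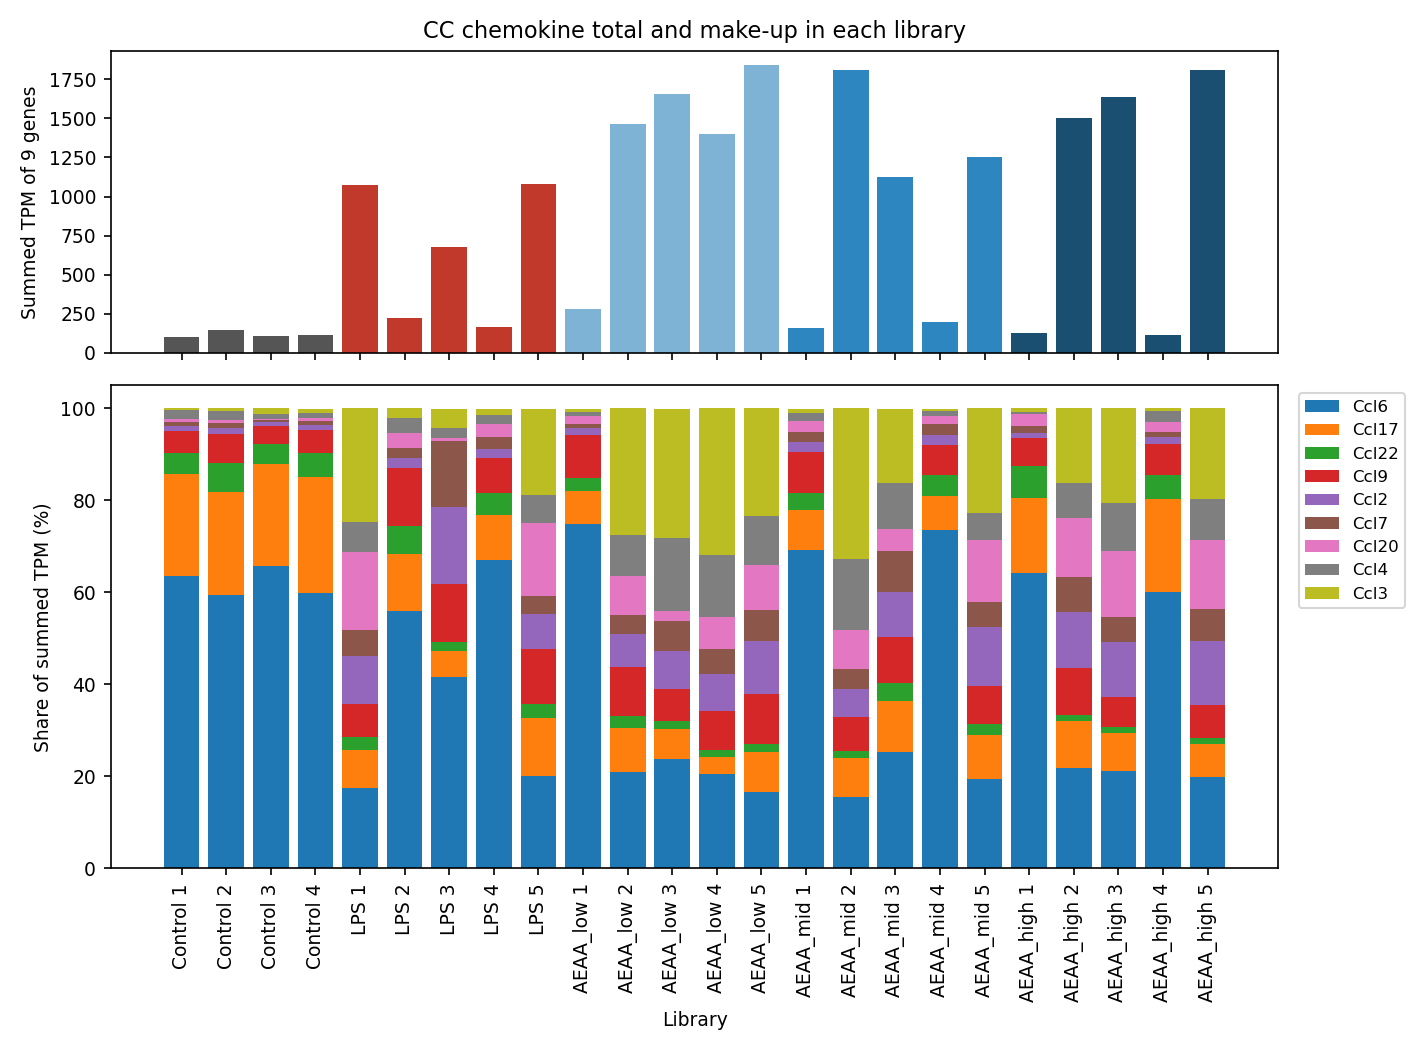
Top, summed TPM of the 9 CC chemokines in each library; bottom, share of that sum in percent taken by each gene. AEAA_high library 4, whose sum of 117 TPM lies within the range of Control, is mostly Ccl6, while Ccl3 reaches 32.8% in AEAA_mid library 2.

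**Figure D5:**
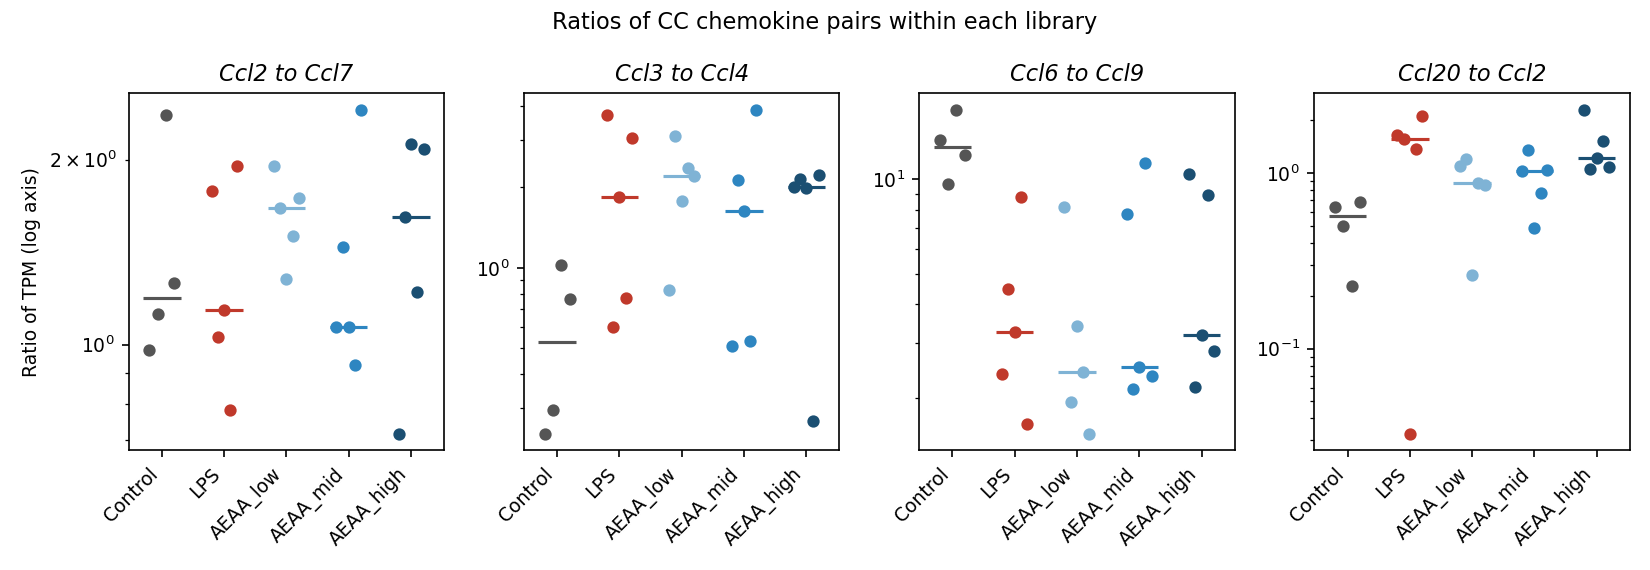
Ratio of TPM within each library for 4 pairs of CC chemokines, on log axes, by group (Control n = 4, other groups n = 5), with bars at group medians. Ccl2 to Ccl7 covers 0.716 to 2.41 over the challenged libraries, and LPS library 3 stands at 0.0327 for Ccl20 to Ccl2.

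Of 12 CC receptor genes listed 8 were tested, and 4 rose in LPS against Control (1 after scaling), a share near the 56.2% and 14.2% of all genes called higher. Ccr1, the receptor of Ccl3, Ccl6 and Ccl9, rose by 2.44 (SE 0.82, limma adjusted p = 0.0148), from 1.61 to 2.77 TPM in Control to 4.63 to 32.4 TPM in LPS, with no overlap. Ccr7, which guides dendritic cells and T cells to lymph nodes, rose by 1.62 (SE 0.25, adjusted p = 1.16e-05) and was the only one called after scaling (1.02, adjusted p = 0.00915). Ccrl2, which binds chemerin without signalling, rose by 1.12 (adjusted p = 0.00438) and Ccr9, a gut-homing receptor, by 0.59 (adjusted p = 0.0259). Ccr2, the receptor of Ccl2 and Ccl7, was 0.41 higher with an adjusted p of 0.401. Ccr6, the receptor of Ccl20, was 0.73 higher (adjusted p = 0.0503). Ccr4 did not pass the filter and stood at 0.17 to 1.40 TPM.

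In AEAA_low against Control 6 of the 8 receptors rose, and 5 after scaling, beside 44.4% and 13.4% of all genes called higher. Ccr2 rose by 1.48 (limma adjusted p = 0.0046, and 0.0646 after scaling). In AEAA_mid 6 of 8 rose (3 after scaling), beside 53.3% and 14.7% of all genes. In AEAA_high 3 of 8 rose (0 after scaling), beside 37.5% and 10.2% of all genes, so the first count is near the share of all genes. Between extract and LPS alone, Ccrl2 was 0.95 higher in AEAA_low (adjusted p = 0.0439, and 0.0657 after scaling), and Ccr7 was lower in AEAA_high at -0.72 on the log2 scale (adjusted p = 0.0291, and 0.356 after scaling). The Ccr2 difference in AEAA_low against LPS was 1.07 with an adjusted p of 0.0685. In bulk lung, fewer cells of a type and less RNA per cell cannot be told apart.

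Among 12 other CC ligands listed, 9 were tested. Of these 2 rose in LPS and 1 fell, and after scaling 0 rose and 2 fell. Over all genes 56.2% were called higher, and 14.2% after scaling. Ccl5, a T cell and monocyte attractant that lies beside Ccl9, rose by 1.84 (limma adjusted p = 0.00922, and 0.144 after scaling), from 35.0 to 68.5 TPM in Control to 84.8 to 281 TPM in LPS. Ccl19, a ligand of Ccr7, rose by 1.36 (adjusted p = 0.0179, and 0.164 after scaling). Ccl27a, an epithelial ligand of Ccr10, fell by 0.61 (adjusted p = 0.0429) and by 1.22 after scaling (adjusted p = 0.000711). Ccl12, a further Ccr2 ligand, was 2.39 higher with an adjusted p of 0.0638; it stood at 36.1, 4.02, 74.5, 3.24 and 31.9 TPM in the LPS libraries, high where Ccl2 was high. Ccl26 is listed at 0 in every library.

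Atypical chemokine receptors bind chemokines without signalling through G proteins. Of 4 listed 3 rose in LPS, beside 56.2% of all genes called higher. They were Ackr1 by 1.82 (limma adjusted p = 0.0245), Ackr3 by 1.54 (adjusted p = 0.000516) and Ackr2, a scavenger of inflammatory CC chemokines, by 1.13 (adjusted p = 4.51e-05). Ackr2 alone was called after scaling (0.51, adjusted p = 0.0216), beside 14.2% of all genes called higher. In AEAA_high against LPS Ackr2 was lower at -0.59 on the log2 scale (adjusted p = 0.0233, and 0.27 after scaling). Of 11 genes of NF-kB subunits and their feedback regulators all 11 rose in LPS (5 after scaling), beside the same 56.2% (14.2%) of all genes. Bcl3 rose by 2.45 (limma adjusted p = 2.22e-05) and Nfkb2 by 2.36 (adjusted p = 0.000121).

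Markers of cells that could carry these transcripts were counted in the same contrast, in which 56.2% of all genes were called higher (14.2% after scaling). Neutrophil markers rose in LPS in 10 of 10 (6 after scaling), among them the granule protein gene Lcn2 by 4.31 (limma adjusted p = 0.0278) and the alarmin gene S100a9 by 4.05 (adjusted p = 0.00459), and their summed TPM was 229.5 to 327 in Control, 838 to 18860 in LPS, 1701 to 14780 in AEAA_low, 523 to 18530 in AEAA_mid and 430.0 to 25390 in AEAA_high. Monocyte and recruited macrophage markers rose in 10 of 10 (1 after scaling, Fn1 by 1.86 on TPM as deposited), with sums of 281 to 363 TPM in Control and 665 to 1933 TPM in LPS. Alveolar macrophage markers rose in 7 of 10 (0 after scaling), with sums of 388 to 463 TPM and 616 to 1519 TPM. Both macrophage lists include Chil3, so their counts and sums are not separate. In LPS library 3, where the sums were 1933 and 1519 TPM, Chil3 alone stood at 940 TPM. Of dendritic cell markers, a list that includes Ccl17, 3 of 10 rose: Fscn1 by 2.53, Cacnb3 by 1.13 and Zbtb46 by 1.08. After scaling 3 were called higher. The share was below that of all genes on TPM as deposited and above it after scaling. The median change of the list was 0.41, and -0.08 after scaling. Of T and NK cell markers 6 of 8 rose in LPS (1 after scaling, and 1 fell). Their summed TPM was 121 and 86.2 in LPS libraries 2 and 4, where Ccl2 was low, and 57.4, 65.1 and 59.0 in LPS libraries 1, 3 and 5. The extract groups did not show this order. The sum was 70.6 in AEAA_low library 1 (group range 64.8 to 124). It was 71.05 and 68.0 in AEAA_mid libraries 1 and 4 (52.5 to 99.8), and 54.3 and 36.5 in AEAA_high libraries 1 and 4 (36.5 to 89.6). No marker of these immune cell lists was at 0 in every library of a group, and the part of cell numbers in the chemokine levels was not tested. Lung tissue markers gave 3 higher and 1 lower of 8, and 2 higher and 3 lower after scaling. Skeletal muscle markers gave 1 higher of 4 tested, Mylpf, and 0 after scaling. Against LPS alone, 0 of 10 neutrophil and 0 of 10 monocyte and recruited macrophage markers were called in each extract group. The shares of all genes called were 10.6% in AEAA_low, 0% in AEAA_mid and 27.6% in AEAA_high. In AEAA_high 2 of 10 alveolar macrophage and 3 of 10 dendritic cell markers were lower than in LPS on TPM as deposited. These counts are near the 25.5% of all genes called lower. After scaling 0 of either list were lower, beside 8.73% of all genes called in either direction.

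The patterns of the 9 members over the 20 challenged libraries were set against those of 15536 genes by Spearman's rho, as a description. The 20 points share the split described for Ccl2. Ccl3 was most like Ccl4 (rho = 0.96), Cxcl2 (0.95) and Il1a (0.94), a neutrophil attractant and an alarmin cytokine. Ccl4 was most like Il1a (0.97), Ccl3 (0.96) and Il1bos (0.96). Ccl2 was most like Hif1a (0.96), Emp3 (0.95) and S100a4 (0.94), and Ccl7 like Il6 (0.92), Ccl2 (0.92) and Cd83 (0.91). Ccl20 was most like Hbegf (0.93), an epidermal growth factor receptor ligand, then Tnfrsf12a (0.91) and Fcrlb (0.91). Ccl6 was most like Cd200r1 (0.94), Tfec (0.94) and Zfp992 (0.92), and Ccl9 like Cd302 (0.93), Tnfrsf26 (0.92) and Ccl17 (0.91). Ccl17 was most like Orm3 (0.92), Ccl9 (0.91) and Saa1 (0.90), and Ccl22 like Vnn1 (0.90), Mmp3 (0.88) and Mmp19 (0.87).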

How the data were processed

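Lung RNA of 24 libraries was sequenced as paired ends. The deposited table gives TPM per gene; its header names no unit, and TPM was read from values that sum to the same total in each library. The submitters' processing notes name HISAT2, StringTie, RSEM and DESeq2, without roles, and the build GRCm39. Counts and depth are not given in the sources used here, so no count model was used.

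Genes with at least 1 TPM in at least 4 libraries (17823) were tested with limma 3.58.1 (R 4.3.3) on log2(TPM + 1), with a trended, robust prior and 1 mean per group over all 24 libraries. Two-sided p-values were adjusted by Benjamini-Hochberg over all genes tested and called under 0.05; fold changes on this scale understate changes of low genes. Scripts were tested on simulated data. Alternatives were median-of-ratios scaling, a pseudocount of 0.1, no filter, the compared groups only, a replicate block, leaving out the 3 libraries rich in muscle transcripts and leaving out each library. All 9 members are named; of each other list, up to 4 called genes with the largest change; and the 3 genes most like each member. Other genes named beyond that were chosen after their values were seen. Members and lists were chosen with earlier results of these data known. Values of 1 listed receptor are not reported here. Neighbouring genes are from GENCODE M21. Promoters are RefSeq, GRCm38.p6, and were not joined to coordinates of the authors' build.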

Additional observations from a re-analysis of the deposited data

Results flagged for a closer look

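Among 45 sets of values (9 genes in 5 groups), 5 held a library far from the others of its group by Dixon's test, which chance gives in about 1 of 20 sets. All 5 are AEAA_low library 1, which was far below the other 4. It had 4.49 TPM of Ccl2 where the others had 103 to 214 TPM, and 2.01 TPM of Ccl3 where they had 402 to 467 TPM. It had 2.44 TPM of Ccl4 beside 130 to 264 TPM, 2.30 TPM of Ccl7 beside 61.9 to 123 TPM, and 25.6 TPM of Ccl9 beside 115 to 198 TPM. The 5 genes were measured in the same library, so these are not separate events. In LPS, AEAA_mid and AEAA_high the low libraries came in pairs, which this test does not single out.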

How the results depend on the processing

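The number of members called fell most with scaling and with the loss of single libraries. In LPS against Control the 6 calls became 0 after median-of-ratios scaling, 2 with no filter on low values and 0 without the 3 muscle-rich libraries, and they became 8 with only the compared groups in the fit, where Ccl3 (adjusted p = 0.0267) and Ccl4 (adjusted p = 0.0185) were added in limma. Leaving out each library in turn gave 2 to 6. In AEAA_mid against Control the 6 calls became 0 with scaling and 2 with no filter, and leave-one-out gave 2 to 8. In AEAA_high against Control the 5 calls became 1 with scaling, 2 with no filter and 1 with only the compared groups in the fit, and leave-one-out gave 0 to 7. In AEAA_low against Control leave-one-out gave 8 each time, scaling gave 7, and the compared groups alone gave 9, with Ccl17 at an adjusted p of 0.0494. Counts against LPS and over the dose trend were 0 in every setting run. With no filter more genes are tested; the cause of the other shifts was not tested. The replicate block left the counts against Control at 6, 8, 6 and 5 and changed no call. Same-numbered libraries of different groups had a median correlation of deviations of 0.0616 (46 pairs), and 20 of the 46 were over 0.1. Differently numbered libraries had a median of -0.0117 (184 pairs), and 55 of the 184 were over 0.1. The numbers were not taken as pairs. The challenged libraries below the step of Ccl2 were numbered 1, 2 or 4, and none was numbered 3 or 5.

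Estimates near 0 turned sign. With scaling, mid against LPS became 0.0306 for Ccl9, high against LPS 0.0907 for Ccl9 and 0.0712 for Ccl22, and the trend 0.0776 for Ccl2, 0.114 for Ccl6 and 0.0125 for Ccl7. With a pseudocount of 0.1, high against LPS became -0.10 for Ccl7 and the trend -0.11 for Ccl4. Without the muscle-rich libraries, Ccl9 became 0.44 in mid and 0.24 in high against LPS, and the trend 0.76 for Ccl2, 0.52 for Ccl3, 0.12 for Ccl6 and 0.63 for Ccl7. Leaving out each library, mid against LPS ranged from -0.52 to 0.92 for Ccl2, -0.43 to 1.59 for Ccl3, -0.10 to 1.50 for Ccl4, -0.40 to 0.81 for Ccl7, -0.50 to 0.44 for Ccl9, -0.12 to 0.73 for Ccl17, -0.20 to 1.15 for Ccl20 and -0.20 to 0.46 for Ccl22. High against LPS ranged from -0.48 to 1.21 for Ccl2, -0.43 to 1.50 for Ccl3, -0.11 to 1.59 for Ccl4, -0.12 to 0.46 for Ccl6, -0.55 to 0.88 for Ccl7, -0.71 to 0.35 for Ccl9 and -0.48 to 0.0515 for Ccl22. The trend ranged from -0.50 to 0.52 for Ccl2, -0.63 to 0.53 for Ccl3, -0.35 to 0.66 for Ccl4, -0.18 to 0.17 for Ccl6, -0.48 to 0.37 for Ccl7, -0.63 to 0.0083 for Ccl9 and -0.0014 to 0.46 for Ccl17. Depth is unknown, so counting error could not be set beside low values.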
